A study of Mus musculus with 6 samples.

Results

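The genes described here are those of class II antigen presentation in mouse bone marrow cells: H2-Aa, H2-Ab1, H2-Eb1, H2-DMa, H2-DMb1, H2-DMb2, H2-Oa, H2-Ob, Cd74 and Ciita. They were chosen by name, 10 genes in all, and 9 of them had a probe that names 1 gene, out of 22180 genes with such a probe. The exception was Cd74, whose one probe also names the microRNA Mir5107 within the same gene, so that signal is given as a signal of the shared probe. The study used 6 arrays, 3 of YFP-positive and 3 of YFP-negative cells with the LSK surface phenotype, the gate of blood stem cells and multipotent progenitors. Both groups came from C57Bl6 mice with a tamoxifen-inducible Cre under the Cdh5 (VE-cadherin) promoter, Tg(Cdh5-Cre/ERT2), and a YFP reporter at Rosa 26. The pups received tamoxifen on days 1, 2 and 3, and marrow was taken at postnatal day 27, 26 days after the first dose. YFP is kept by all descendants of a cell in which the Cre was active. The label alone thus does not show that a cell expressed Cdh5 when it was sorted, and the measured Cdh5 level is given below. Whether the replicates came from separate animals is not stated in the labels, so the spread that the p-values rest on may be technical.

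Class II molecules are pairs of an alpha and a beta chain that carry peptides from endosomes to the cell surface, where CD4 T cells read them. The invariant chain, encoded by Cd74, fills the groove of new pairs and guides them to endosomes; H2-DM then exchanges its last fragment for peptides, and H2-O restrains H2-DM. Ciita encodes a co-activator that binds no DNA itself but joins a complex of RFX, CREB and NF-Y proteins on the X and Y boxes upstream of these genes. Dendritic cells, B cells and macrophages are the main carriers of class II, and stem and progenitor cells of the marrow can carry it too. C57BL/6 mice lack a working H2-Ea gene, so H2-Eb1 gives no surface H2-E in that strain.

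The upstream sequences are shown because the X and Y boxes are what the family shares outside its coding parts. RefSeq promoter windows (GRCm38.p6) were found for 7 members. The Y box was searched as TGATTGG, the inverted CCAAT sequence of NF-Y, and the core of the X box as AACNGATG, on both strands, in the 250 bases before the gene start; the letters do not overlap each other, and both were chosen with these sequences in view. Below, each stretch runs 5′ to 3′ on the gene's strand, and capitals mark a match.
H2-Aa, minus strand, chr17:34287847-34287943: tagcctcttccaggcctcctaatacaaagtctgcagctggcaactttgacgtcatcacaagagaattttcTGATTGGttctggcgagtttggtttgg
H2-Eb1, plus strand, chr17:34305736-34305832: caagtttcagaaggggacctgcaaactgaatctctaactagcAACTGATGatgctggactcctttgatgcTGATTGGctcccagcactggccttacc
H2-DMb1, plus strand, chr17:34153058-34153154: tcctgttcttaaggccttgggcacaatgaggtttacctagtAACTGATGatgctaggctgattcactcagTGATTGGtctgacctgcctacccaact
H2-DMb2, plus strand, chr17:34145087-34145183: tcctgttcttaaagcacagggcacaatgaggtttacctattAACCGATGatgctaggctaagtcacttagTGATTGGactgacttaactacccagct
H2-Oa, plus strand, chr17:34092264-34092360: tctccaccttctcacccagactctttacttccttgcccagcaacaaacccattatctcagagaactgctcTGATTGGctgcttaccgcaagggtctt
H2-Ob, plus strand, chr17:34238776-34238872: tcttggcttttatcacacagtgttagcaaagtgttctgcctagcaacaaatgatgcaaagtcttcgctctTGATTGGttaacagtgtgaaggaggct

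The Y letters lay 45 to 92 bases before the start in 6 of the 7 members with a window, against 7.23% of all 32851 windows with a match on either strand. The X letters were found in 3 of the 7, H2-Eb1, H2-DMb1 and H2-DMb2, against 1.98% of all windows. In those 3 genes the start of X lay 28 or 29 bases upstream of the start of Y, and only 9 windows in all (0.0274%) held X and then Y within 60 bases, that of H2-Eb2 among them. Neither set of letters was in the 2 windows of H2-DMa. Other spellings of the X box were not searched, so a window without a match may still hold such a box. The stretches of H2-DMb1 and H2-DMb2 matched at 83 aligned bases and differed at 14. These matches are descriptions of the letters in the windows, and say nothing of binding in these cells.

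Among the class II genes, H2-DMa and H2-Ob fell in YFP-positive cells, and the other measured members did not pass the test. The difference was below 0 for 8 of the 9 measured members, among them Ciita at -0.03, with a median of -0.63 on the log2 scale, against -0.01 over all genes, and those 8 were below 0 with quantile normalization too. By limma's test 2 members were lower, 0 higher and 7 did not pass. Over all genes, 4.84% were called in either direction and 1.96% as lower. Of the 22180 genes, 639 were called higher and 435 lower, and 3820 had an unadjusted p under 0.05. In 4 members, H2-Aa, H2-Ab1, H2-DMa and H2-Ob, all 3 YFP-positive arrays lay below all 3 YFP-negative arrays, which held for 11.9% of all genes. In sorted bulk samples, fewer cells of a type and less RNA per cell cannot be told apart. Levels are deposited log2 expression values, and array medians over all probes were 3.62 to 3.68, so a level below these cannot be told from background.

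**Figure D1:**
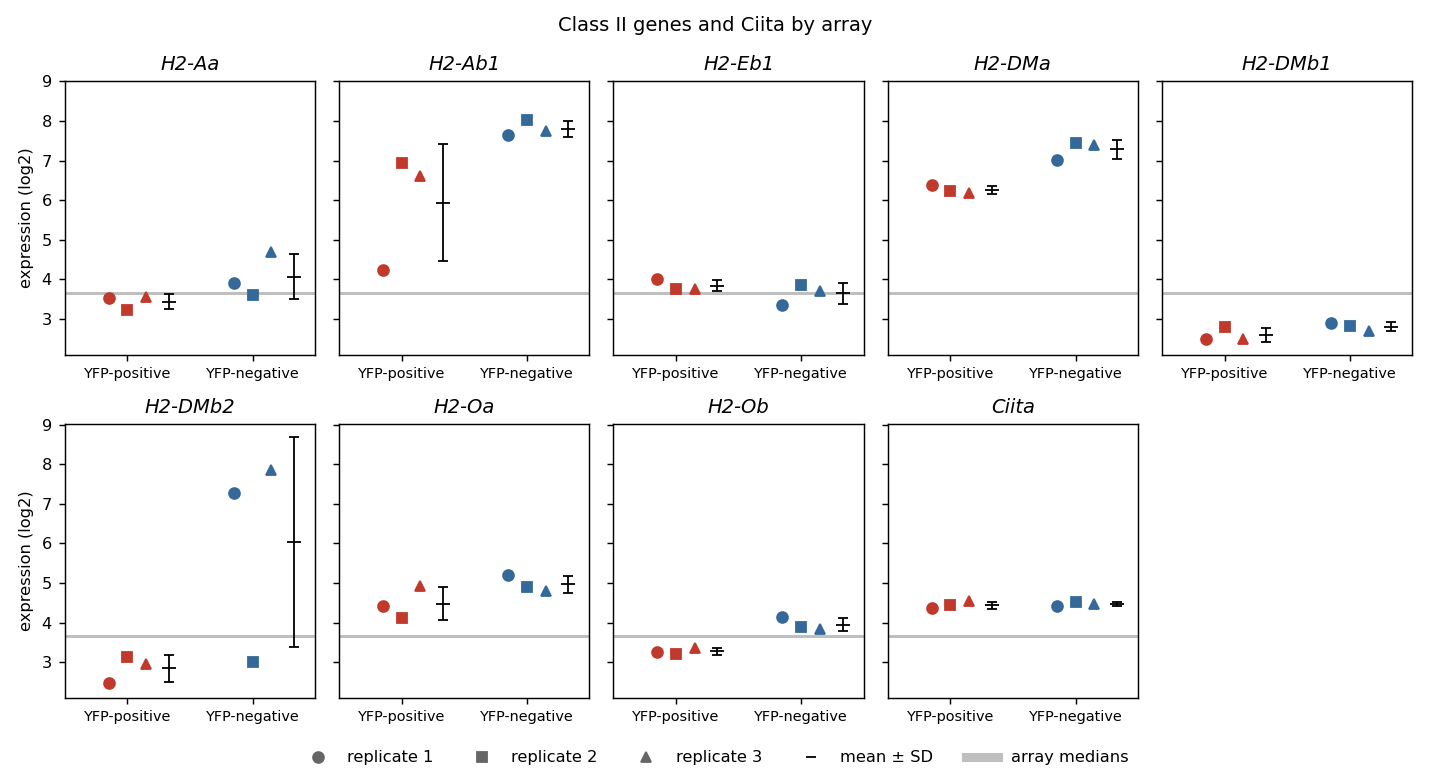
Log2 expression of the 9 measured members on each array, YFP-positive at left and YFP-negative at right in each panel, with the replicate number as the marker shape, mean ± SD (n = 3) as the black bar and the range of array medians as the grey band. The YFP-negative arrays of H2-DMb2 lie at 7.27, 3.00 and 7.86, and YFP-positive replicate 1 of H2-Ab1 lies at 4.24, below the other arrays of that gene.

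Among the chains of the surface molecules, H2-Ab1, the beta chain of H2-A, differed most within the YFP-positive group. In number order, the YFP-positive replicates measured 4.24, 6.95 and 6.62, against 7.64, 8.02 and 7.76 for the YFP-negative replicates. The groups did not overlap, and YFP-positive replicate 1 stood apart from its own group. The mean was 5.94 ± 1.48 for YFP-positive cells, against 7.80 ± 0.19 for YFP-negative cells (SD, n = 3 each), a difference of -1.87 ± 0.70 (SE) with a 95% interval of -3.58 to -0.16. That did not reach the threshold in limma (adjusted p = 0.247). Without YFP-positive replicate 1 the difference was -1.02 (adjusted p = 0.0674). Of all 22180 genes, 8 (0.0361%) had YFP-positive replicate 1 at least 2 log2 units below each of the other 5 arrays, H2-Ab1 among them with a gap of 2.38; this pattern was looked for after the values were seen.

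H2-Aa, the alpha chain that pairs with H2-Ab1, was dim on these arrays. It measured 3.54, 3.22 and 3.55 in YFP-positive cells, all below the array medians, against 3.91, 3.59 and 4.70 in YFP-negative cells. The groups did not overlap, but by little, since 3.59 in YFP-negative replicate 2 lay just above the highest YFP-positive array. The difference was -0.63 ± 0.29 (SE) with a 95% interval of -1.35 to 0.08, and it did not pass (adjusted p = 0.354). Without YFP-negative replicate 3, the highest array, the difference was -0.32. H2-Eb1, the beta chain of H2-E, was the member with a positive difference (0.19, 95% interval -0.21 to 0.60, adjusted p = 0.66). Its arrays, at 3.76 to 4.00 in YFP-positive cells, against 3.36 to 3.87 in YFP-negative cells, overlapped and lay near the array medians. H2-Eb2, a further beta chain gene, and H2-Ea measured 3.03 to 3.56 and 3.45 to 3.50 in YFP-positive cells, against 3.37 to 3.95 and 3.23 to 3.79 in YFP-negative cells, and neither passed (adjusted p = 0.726 and 0.989).

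H2-DMa, the alpha chain of the peptide exchanger H2-DM, had the smallest p of the family. The YFP-positive replicates measured 6.38, 6.24 and 6.18, against 7.01, 7.46 and 7.38 for the YFP-negative replicates. Both groups were tight, and a gap lay between them. The mean was 6.27 ± 0.10 for YFP-positive cells, against 7.28 ± 0.24 for YFP-negative cells (SD, n = 3 each), 2.02-fold lower in YFP-positive cells (-1.02 ± 0.15 SE, 95% interval -1.39 to -0.65, adjusted p = 0.0199). The size was -1.15 to -0.93 when any 1 array was left out. The call was lost without YFP-positive replicates 1 or 2 and without YFP-negative replicates 2 or 3 (highest adjusted p = 0.0741).

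The beta chain of H2-DM is encoded by a pair of closely related genes, H2-DMb1 and H2-DMb2, whose signals differed. For H2-DMb2 the YFP-positive replicates measured 2.46, 3.12 and 2.96, against 7.27, 3.00 and 7.86 for the YFP-negative replicates. It was thus at the bottom of the range on 4 arrays and high on YFP-negative replicates 1 and 3, and the groups overlapped through YFP-negative replicate 2. The mean was 2.85 ± 0.34 for YFP-positive cells, against 6.04 ± 2.65 for YFP-negative cells (SD, n = 3 each), a difference of -3.20 ± 1.25 (SE) with a 95% interval of -6.24 to -0.15. The gene did not reach the threshold (limma, adjusted p = 0.267). It did so without YFP-negative replicate 2, with a difference of -4.72 (adjusted p = 0.00457, against 0.367 to 0.506 in the other 5 fits that left out 1 array). That fit was one of 6, and no label sets this array apart.

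Only 3 genes of 22180 (0.0135%) had both YFP-negative replicates 1 and 3 at least 2 log2 units above each of the other 4 arrays, and H2-DMb2 was one of them, with a gap of 4.15; this pattern too was taken from the gene's own values. H2-DMb1 measured 2.49, 2.80 and 2.49 in YFP-positive cells, against 2.91, 2.82 and 2.70 in YFP-negative cells (-0.22, 95% interval -0.54 to 0.10, adjusted p = 0.503). All 6 of its values were below the array medians, and its groups overlapped. How far the probes of this related pair read each other's transcripts was not tested, so both values are uncertain.

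H2-O, the partner that restrains H2-DM, is made of H2-Oa and H2-Ob. H2-Ob, its beta chain, measured 3.26, 3.20 and 3.36 in YFP-positive cells, against 4.15, 3.88 and 3.83 in YFP-negative cells. The groups did not overlap, and the YFP-positive arrays were all below the array medians, so the fold may understate the change. The YFP-negative arrays lay little above those medians of 3.62 to 3.68, so the whole difference lies near background. H2-Ob was 1.60-fold lower in YFP-positive cells (-0.68 ± 0.13 SE, 95% interval -0.99 to -0.37, adjusted p = 0.0417). That call was lost whichever array was left out (adjusted p = 0.0658 to 0.121), while the difference was -0.74 to -0.58. H2-Oa, the alpha chain, measured 4.41, 4.11 and 4.93 in YFP-positive cells, against 5.21, 4.90 and 4.79 in YFP-negative cells. Its groups overlapped through YFP-positive replicate 3, and it did not pass (-0.49, 95% interval -1.06 to 0.09, adjusted p = 0.38). Its difference was -0.30 without YFP-positive replicate 2 and -0.71 without YFP-positive replicate 3, with neither past the threshold.

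The probe shared by Cd74 and Mir5107 measured 5.39, 5.16 and 5.43 in YFP-positive cells, against 5.86, 6.21 and 7.11 in YFP-negative cells. All 3 YFP-positive arrays lay below all 3 YFP-negative arrays, and YFP-negative replicate 3 was the highest. The difference was -1.07 ± 0.32 (SE), with a 95% interval of -1.86 to -0.28. In a fit of all 25335 listed probes, added after the data were seen and in which 4.39% of probes were called, it did not pass (adjusted p = 0.155, and 0.122 to 0.33 with 1 array left out). The second probe of H2-Oa, shared with the transcript BC051537, measured 3.40 to 3.97 in YFP-positive cells, against 3.32 to 3.94 in YFP-negative cells and did not pass there (adjusted p = 0.969).

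Ciita, the co-activator that class II transcription depends on, was nearly flat across the arrays. It measured 4.36, 4.43 and 4.53 in YFP-positive cells, against 4.42, 4.51 and 4.48 in YFP-negative cells. The difference was -0.03 ± 0.10 (SE, adjusted p = 0.931), and its 95% interval of -0.28 to 0.22 holds no change as large as that of H2-DMa or H2-Ob. One probe reads this gene, which starts from several promoters, and isoforms were not told apart. Without detection calls it is not known how far above background 4.4 lies.

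**Figure D2:**
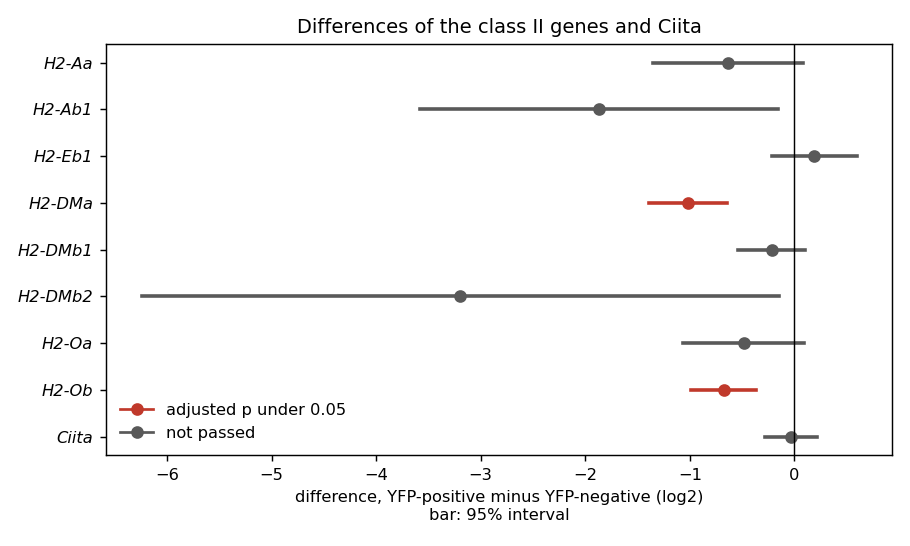
Difference of each measured member, YFP-positive minus YFP-negative (log2), with its 95% interval from limma as a bar; red marks an adjusted p under 0.05. H2-DMa (-1.02) and H2-Ob (-0.68) have narrow intervals below 0, H2-Ab1 and H2-DMb2 have larger differences with wide intervals, and Ciita lies at -0.03.

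The calls of the family depended on single arrays. Among the 9 measured members, 2 were called with all arrays and 0 or 1 in the fits that left out 1 array. The unmoderated model called 0, and so did a model with the replicate number as a block. Without YFP-positive replicate 3, whose broad leukocyte genes stood apart as given below, H2-DMa was the member called. The direction was kept in all 6 such fits by each measured member except Ciita, whose difference was 0.011 without YFP-positive replicate 1.

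**Figure D3:**
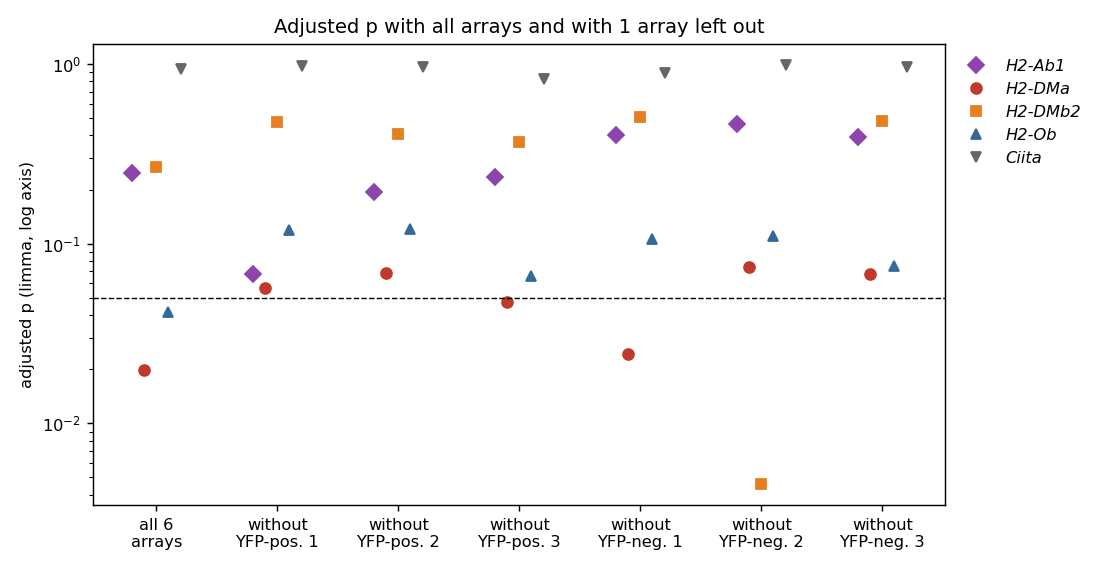
Adjusted p (limma, log axis) of 5 members with all 6 arrays and with each array left out in turn; the dashed line is the threshold of 0.05. H2-DMa moves between 0.0244 and 0.0741 when an array is left out, H2-Ob lies above the line in all 6 such fits, and H2-DMb2 crosses it without YFP-negative replicate 2.

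Genes whose profiles were most like those of members were picked by the highest Pearson r over the 6 arrays. The search covered genes outside the members with an SD of at least 0.5, and this r includes the difference between the groups. For H2-Ab1 they were Ctsg, the neutrophil protease cathepsin G (r = 0.994), Timm8a1 (0.992) and Nfatc3 (0.991). Ctsg shared the low YFP-positive replicate 1, at 4.55 beside 7.20 and 7.33, against 8.36 to 8.61 in YFP-negative cells. For H2-DMb2 they were 4930522L14Rik (0.984), Gm19765 (0.982) and Il10, an anti-inflammatory cytokine (0.977). Il10 measured 3.19, 3.23 and 3.20 in YFP-positive cells, against 6.56, 3.40 and 5.96 in YFP-negative cells. It thus had the same high arrays, YFP-negative replicates 1 and 3. For H2-DMa they were Lcmt1 (0.992), Ddx1 (0.991) and Farsb (0.989), and for H2-Ob Krt18 (0.996), Serpinf1 (0.991) and Cyp4v3 (0.989). The lists of these 4 members shared no gene, and none of the 12 genes lies on chromosome 17. Lists this short, drawn from a large pool without the members, would rarely share a gene or a chromosome, so nothing is concluded from this.

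The 8 measured H2 members lie in one stretch of chromosome 17 in RefSeq, in the order H2-Oa, H2-DMa, H2-DMb2, H2-DMb1, H2-Ob, H2-Ab1, H2-Aa, H2-Eb1. Between or just beyond them lie 7 further measured genes, Brd2, Psmb9, Tap1, Psmb8, Tap2, H2-Eb2 and H2-Ea, several of which serve class I presentation. By limma 0 of the 7 passed (2 had an unadjusted p under 0.05, and the unmoderated model called 0), and their differences ran from -0.78 to 0.11. Psmb9, an inducible proteasome subunit, measured 8.64, 8.05 and 8.61 in YFP-positive cells, against 9.41, 9.34 and 8.90 in YFP-negative cells, without overlap (-0.78, unadjusted p = 0.0121, adjusted p = 0.131). Tap1, a subunit of the peptide transporter of class I, had a difference of -0.54 and overlapped (unadjusted p = 0.0499, adjusted p = 0.29). The called genes of the stretch, H2-DMa and H2-Ob, had uncalled genes on both sides.

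The proteins that assemble on the X and Y boxes were all measured. For the 7 genes Rfx5, Rfxap, Rfxank, Nfya, Nfyb, Nfyc and Creb1, the differences were all below 0 with the deposited and with quantile-normalized values (-1.32 to -0.20 as deposited), though that of Nfya was 0.030 without YFP-positive replicate 2, and none passed (1 had an unadjusted p under 0.05, and the unmoderated model called 0). Nfyb, a histone-fold subunit of NF-Y, had the smallest p of them. It measured 5.29, 3.72 and 4.24 in YFP-positive cells, against 6.28, 5.45 and 5.50 in YFP-negative cells (-1.32 ± 0.44 SE, adjusted p = 0.192). The groups did not overlap, and YFP-positive replicate 1 came close to the lowest YFP-negative array. Rfx5, the large RFX subunit, measured 4.14 to 4.51 in YFP-positive cells, against 4.36 to 5.06 in YFP-negative cells, with overlap.

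The genes of the interferon gamma route and other known inducers of Ciita gave 10 measured genes, of which 1 rose, 0 fell and 9 did not pass. Their median difference was 0.50, and over all genes 639 of 22180 were called higher. Jak1, a kinase of the interferon receptors, rose 2.31-fold in YFP-positive cells, at 10.58, 10.43 and 10.24, against 9.20, 9.25 and 9.19 in YFP-negative cells (adjusted p = 0.00564). It passed in all 6 fits that left out 1 array. The interferon gamma receptor chains Ifngr1 (0.82) and Ifngr2 (0.47) and the transcription factor Irf8 (0.79) had positive differences and did not pass (adjusted p = 0.169, 0.2 and 0.216). Spi1, the blood factor PU.1, measured 5.40, 4.83 and 8.14 in YFP-positive cells, against 7.05, 7.61 and 7.98 in YFP-negative cells (adjusted p = 0.5). Its YFP-positive replicate 3 was the highest of the 6 arrays, and without it Spi1 passed, lower in YFP-positive cells (-2.43, adjusted p = 0.0205). None of the 3 repressors of Ciita or its signalling, Prdm1, Zbtb32 and Socs1, passed (0 had an unadjusted p under 0.05, and the unmoderated model called 0); Zbtb32 had the smallest p (0.11, adjusted p = 0.686).

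Several endosomal enzymes that cut antigen and the invariant chain were higher in YFP-positive cells. Of 11 measured genes, 4 were called higher, 0 lower and 7 did not pass, with a median of 0.83. Over all genes, 639 of 22180 were called higher. Lgmn, the asparaginyl endopeptidase legumain, measured 9.49, 9.76 and 9.34 in YFP-positive cells, against 3.07, 3.95 and 3.60 in YFP-negative cells. It rose 63.6-fold (5.99 ± 0.25 SE, adjusted p = 0.000256), and since 2 of its YFP-negative values lie below the array medians the fold may understate the change. Ctsl, the lysosomal protease cathepsin L, measured 11.38, 11.42 and 11.15 in YFP-positive cells, against 6.98, 6.30 and 7.79 in YFP-negative cells (19.6-fold, adjusted p = 0.00307). Ctsd, the aspartic protease cathepsin D, rose 2.18-fold (adjusted p = 0.00877). Lgmn, Ctsl and Ctsd kept their call in all 6 fits that left out 1 array. Ctsb, cathepsin B, rose 7.22-fold (adjusted p = 0.036), with YFP-negative replicate 3 at 8.84 beside 6.90 and 7.13. It kept its call in 1 of the 6 fits, the one without YFP-negative replicate 3 (lowest adjusted p = 0.00227, highest 0.121).

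Ctss, cathepsin S, the protease of the last invariant chain steps in dendritic and B cells, had a negative difference. It measured 6.06, 6.71 and 8.58 in YFP-positive cells, against 8.97, 8.63 and 8.57 in YFP-negative cells (-1.60 ± 0.63 SE, adjusted p = 0.266). YFP-positive replicate 3 overlapped with the YFP-negative arrays and the other pair of YFP-positive arrays did not. Without that array Ctss passed, lower in YFP-positive cells (-2.33, adjusted p = 0.00983). Ifi30, the endosomal thiol reductase GILT, measured 4.95 to 6.12 in YFP-positive cells, against 4.70 to 7.81 in YFP-negative cells (adjusted p = 0.914).

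**Figure D4:**
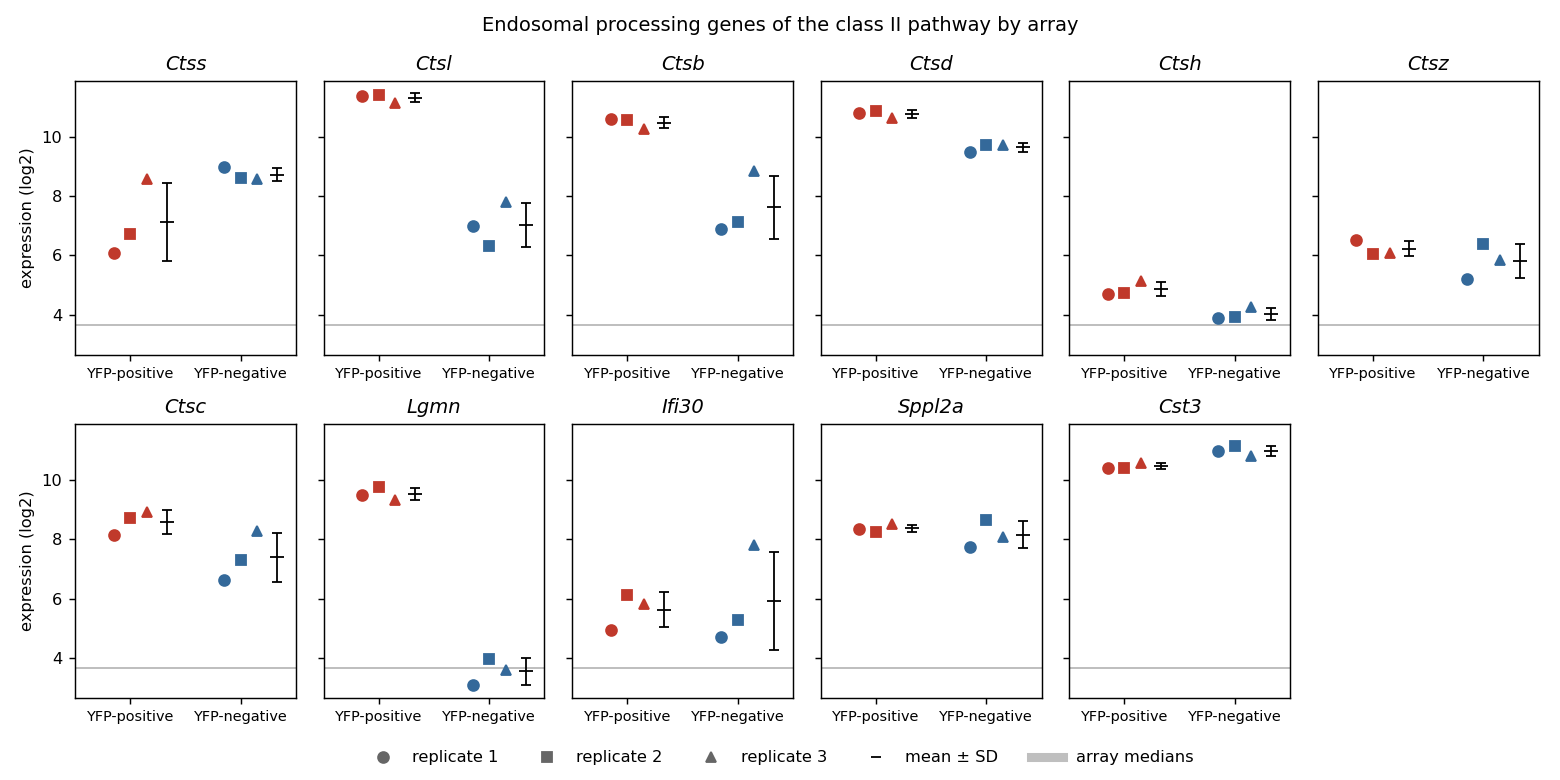
Log2 expression of 11 endosomal processing genes on each array, YFP-positive at left and YFP-negative at right in each panel, with replicate number as marker shape, mean ± SD (n = 3) as the black bar and array medians as the grey band. Lgmn, Ctsl, Ctsb and Ctsd are higher on all 3 YFP-positive arrays, while Ctss is low on YFP-positive replicates 1 and 2 and at 8.58 on replicate 3.

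No gene passed among the other groups of the pathway. The ubiquitin ligases that remove class II from the surface and their opponent Cd83 gave 3 measured genes. Marchf8, one of the ligases, had the smallest p (1.40, adjusted p = 0.124). Of 5 partners of the Cd74 protein, Mif, a cytokine that binds it, measured 9.93, 10.54 and 10.93 in YFP-positive cells, against 12.38, 11.82 and 11.42 in YFP-negative cells (-1.41 ± 0.34 SE, adjusted p = 0.0836). Its groups did not overlap. Of 6 co-stimulatory ligands, Cd86, a ligand of CD28, measured 3.43, 4.29 and 4.89 in YFP-positive cells, against 4.80, 6.22 and 6.32 in YFP-negative cells (-1.57, adjusted p = 0.197). YFP-positive replicate 3 overlapped with YFP-negative replicate 1 there. Over the 26 measured genes of all pathway groups without a call, 4 had an unadjusted p under 0.05, and the unmoderated model called 0. An unadjusted p under 0.05 was found for 3820 of all 22180 genes. Over all pathway groups, 5 of 47 measured genes were higher and 0 lower, against 639 higher and 435 lower of all 22180 genes. Without YFP-positive replicate 3, 4 pathway genes were higher and 4 lower, with Spi1, Ctss, Cd44 and Ddt lower.

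Markers of several cell types were read from the same fit, and their part in the results above was not tested. Of 18 endothelial genes, 17 rose, with a summed linear level of 13318 to 19041 in YFP-positive and 949 to 1534 in YFP-negative arrays. Ptprb, an endothelial phosphatase, rose by 6.41, and Emcn, a sialomucin of veins and sinusoids, by 3.51 (adjusted p = 3.87e-05 and 0.032). Ptprb passed whichever array was left out, and Emcn only when YFP-negative replicate 3 was (adjusted p up to 0.103 otherwise). Cdh5, whose promoter drove the Cre, measured 11.63, 11.84 and 11.29 in YFP-positive cells, against 5.40, 4.55 and 3.71 in YFP-negative cells. It rose by 7.03 (limma, adjusted p = 0.00086) and passed in all 6 fits that left out 1 array. Of 19 broad leukocyte genes, 2 fell and 17 did not pass. Their median against the YFP-negative mean was -2.15 and -2.30 in YFP-positive replicates 1 and 2 and 0.19 in replicate 3, so that replicate stood apart. Their summed level was 2678 to 11418 in YFP-positive and 8626 to 9823 in YFP-negative arrays. Vav1, a signalling protein of leukocytes, was 5.90-fold lower (adjusted p = 0.00219), with no such exception for replicate 3. Of the 6 measured genes around the LSK gate, 4 fell. Kit, one of its defining markers, stood at 6.56 to 7.06 in YFP-positive cells, against 7.57 to 7.96 in YFP-negative cells, while Ly6a was not analysed here. Kit lost its call whichever array was left out (adjusted p = 0.0598 to 0.148). The other genes that fell were Flt3 (-4.17), Cd48 (-3.76) and Cd34 (-2.29) (limma, adjusted p = 0.00507, 0.0209 and 0.00279). Flt3 and Cd34 kept their call in all 6 fits that left out 1 array, and Cd48 in 2.

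The usual carriers of class II gave mixed values. Of 12 dendritic cell markers, 2 rose, Fscn1 (2.91-fold, adjusted p = 0.0341) and Cd209a (1.75-fold, adjusted p = 0.0479), and 0 fell, and the summed level was 625 to 1376 in YFP-positive and 600 to 815 in YFP-negative arrays. Bright genes such as Bst2 weigh most in that sum, and a sum without them was not taken. Itgax, which encodes the defining dendritic cell integrin CD11c, was below the array medians throughout. It stood at 2.61 to 3.06 in YFP-positive cells, against 3.01 to 3.18 in YFP-negative cells. Zbtb46, another marker of the list, stood at 4.58 to 5.61 in YFP-positive cells, against 3.41 to 3.86 in YFP-negative cells. Its groups did not overlap, and it did not pass (1.36, limma, adjusted p = 0.0725). Of the 12 markers, 5 had a difference below 0. With 1 array left out, Fscn1 passed only without YFP-positive replicates 1 or 3 (adjusted p up to 0.113 otherwise), and Cd209a never (0.0612 to 0.145). On each array, 6 to 8 of the 12 dendritic markers lay above the array median. Of 17 B lymphocyte markers, 1 fell, Cd79b, a chain of the B cell receptor complex. It measured 3.30, 3.33 and 3.49 in YFP-positive cells, against 5.60, 5.47 and 5.04 in YFP-negative cells (3.99-fold, adjusted p = 0.0031). Above the array median were 4 or 5 of the 17 on YFP-positive arrays and 7 or 8 on YFP-negative arrays. The summed level of the B lymphocyte markers was 187 to 200.4 in YFP-positive and 213 to 265 in YFP-negative arrays. Cd79b is part of that sum, and a sum without it was not taken. The median of the 17 against the YFP-negative mean overlapped, at -0.092 to 0.003 in YFP-positive and -0.116 to 0.067 in YFP-negative arrays. Ms4a1, the mature B cell protein CD20, was below the array medians on all arrays, at 2.56 to 2.69 in YFP-positive cells, against 2.44 to 2.74 in YFP-negative cells.

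Of 14 monocyte and macrophage markers, 2 rose, Vcam1 (67.2-fold, adjusted p = 4.31e-05), an adhesion molecule that endothelium also makes, and Mertk, a receptor for dying cells (3.34-fold, adjusted p = 0.046). With 1 array left out, Mertk passed 2 of 6 times (adjusted p up to 0.141). Lyz2, the myeloid lysozyme, did not pass (adjusted p = 0.739). The summed level was 2350 to 3612 in YFP-positive and 1033 to 2183 in YFP-negative arrays. Vcam1 alone gave 942 to 1354 of this in YFP-positive and 16.1 to 16.7 in YFP-negative arrays, and the other 13 markers overlapped, at 1277 to 2671 in YFP-positive and 1016 to 2167 in YFP-negative arrays. Of 12 neutrophil markers none passed (0 had an unadjusted p under 0.05, and the unmoderated model called 0), at summed levels of 11650.2 to 26960.3 in YFP-positive and 5298 to 22343 in YFP-negative arrays. S100a8, a calprotectin subunit, stood at 11.88 to 12.59 in YFP-positive cells, against 10.53 to 12.51 in YFP-negative cells. Of 11 T and NK cell markers none passed either (2 had an unadjusted p under 0.05, and the unmoderated model called 0), and the summed level was 152 to 283 in YFP-positive and 388 to 450.2 in YFP-negative arrays. Without Nkg7 the other 10 overlapped, at 113 to 131 in YFP-positive and 105 to 153 in YFP-negative arrays. Nkg7, a granule protein, stood at 4.79 to 7.25 in YFP-positive cells, against 8.13 to 8.27 in YFP-negative cells (adjusted p = 0.109).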

How the data were processed

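Expression was measured on 6 arrays of amplified RNA, 500 pg of total RNA per sample per the labels' protocols. The authors deposited log2 expression values for 41345 probes, 1 column per array; the scale was read from the values. Partek is named in the submitters' processing notes, with no version. How background was corrected, probes summarised and arrays normalized is not given in the sources used here. Annotation of the array listed 23521 probes with 1 gene symbol and 1814 with several, and 16010 probes were unnamed here. Each gene was read from its single-symbol probe of highest mean over the 6 arrays.

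Differences, YFP-positive minus YFP-negative, were fitted by lmFit and eBayes of limma 3.58.1 (R 4.3.3). Tests were two-sided, and p-values were adjusted by Benjamini-Hochberg across the 22180 genes, with a threshold of 0.05 and no filter on level; 5 of the 9 measured members lay above the median gene. The fit was tested on simulated data. The number of arrays limits the precision. Members and gene lists were chosen with earlier results of these data known. Named are all members and called genes of each pathway list (or the one of smallest p). Also named are 3 genes of most like profile for 4 members. Cd74 was also due there but had no single-symbol probe. Per marker list, up to 2 genes of highest mean and 1 of smallest p were due. Of these, some are named only here, with their log2 differences: Tcf4 (0.94), S100a9 (0.60), Mpo (-1.10), Erg (0.57), Lcp1 (-0.41), Arhgdib (-0.77) and Ly6e (0.53). None of them passed with all arrays. Other genes named, such as Itgax, Zbtb46, Ms4a1, Cd209a, Mertk, Cdh5, Kit, Ctss, Spi1, Rfx5, Psmb9 and Tap1, were chosen after their values were seen. Alternatives were each array left out, a replicate block, the mean of a gene's probes, quantile normalization, a level filter, an unmoderated model, a trended and robust prior and, added after seeing the data, all listed probes and marker sums without Vcam1 or Nkg7. Promoter sequences are RefSeq's (GRCm38.p6).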

Additional observations from a re-analysis of the deposited data

How the results depend on the processing

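The count of called members was 2 with all arrays, and also 2 with the mean of all probes of a gene, with quantile normalization and with every listed probe tested. It was 0 with the replicate number as a block, 1 with genes above the median level only (5 members tested), 0 with the unmoderated linear model, 1 with a trended and robust prior, and 0 to 1 without 1 array. H2-DMa had an adjusted p of 0.0772, 0.0986 and 0.063 with the block, the unmoderated model and the trended prior, and H2-Ob of 0.109 and 0.116 with the block and the unmoderated model. Over all genes, 1074 calls became 580 with the replicate block (412 higher, 168 lower), 180 with the unmoderated model and 430 to 1185 without 1 array. The 5 pathway calls became 2 with the unmoderated model and 4 to 8 without 1 array, and the 28 marker calls became 14 with the unmoderated model and 20 to 37 without 1 array. With the block, Cd86 passed (adjusted p = 0.0309) and Ctsb did not (0.08). Leaving out 1 array turned the direction of 4 genes named by rule, none of which had passed: Ciita (-0.077 to 0.011, above 0 without YFP-positive replicate 1), and the markers Bst2 (-0.42 to 0.52, below 0 without YFP-positive replicate 2 or YFP-negative replicate 3), Pax5 (-0.28 to 0.0064, above 0 without YFP-positive replicate 2) and Cd3d (-0.81 to 0.30, above 0 without YFP-negative replicate 3). It also turned 8 uncalled genes named otherwise: Ifi30 (-0.91 to 0.64), H2-Ea (-0.11 to 0.17), Nfya (-0.51 to 0.030), Prdm1 (-0.10 to 0.21), Socs1 (-0.070 to 0.36), Ms4a1 (-0.11 to 0.043), Brd2 (-0.026 to 0.22) and Tap2 (-0.11 to 0.11). Causes were not tested; fits without an array have fewer samples. Same-numbered arrays deviated from their group means with r = 0.0985, 0.0806 and 0.167 over genes. Arrays of different numbers gave -0.111 to 0.0301, so each same-numbered r was above all of these. The labels state no pairing, and the main fit used none. Whether the numbers pair the samples is not known, and with the replicate block no member kept its call. Without detection calls, signal over background limits what can be said of dim members.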
